A study of Mus musculus with 7 samples.

Results

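The genes described here are 10 regulators of the G1 phase of the cell cycle, namely the D-type cyclins Ccnd1, Ccnd2 and Ccnd3, the E-type cyclin Ccne1, the cyclin-dependent kinases Cdk4 and Cdk6, the kinase inhibitors Cdkn1b, Cdkn1c and Cdkn2c, and the pocket protein gene Rb1. They were found by their symbols, and all 10 had a row among the 23284 genes of the deposited count tables. RNA came from atrioventricular canals, the constriction of the embryonic heart tube where the valves begin to form, of outbred NMRI mice. There were 4 libraries of Hand2 d/d embryos, in which the whole Hand2 coding region had been removed from the germline, and 3 of wild-type embryos, all untreated. Each library pooled 4 canals from embryos of 18 to 23 somites, given in the labels as e9.0-e9.25 although the titles read e9.5, and the pools were matched in somite stages and sex ratio. Because the deletion is germline, every cell type of the null canal lacks HAND2, a basic helix-loop-helix factor.

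In G1, growth signals raise D-type cyclins, which activate the kinases CDK4 and CDK6. These phosphorylate the retinoblastoma protein RB1 and release E2F transcription factors, and cyclin E with CDK2 then completes the step into S phase. The inhibitors act at both points: INK4 proteins such as CDKN2C (p18) bind CDK4 and CDK6, while the CIP/KIP proteins CDKN1B (p27) and CDKN1C (p57) restrain cyclin and kinase complexes more broadly. Mouse embryos without any D-type cyclin develop heart defects, and Cdkn1c is an imprinted gene expressed from the maternal copy.

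The promoter table of RefSeq (build GRCm38.p6) held 6 of the 10 members, as stretches from 250 bases before the start of the gene to 50 after it. It held none for Ccnd1, Ccnd2, Cdkn1c and Rb1. Promoters of a pair of members are shown because they differ in outcome, Ccne1 being lower in null canals and Cdk4 not passing the test. The first is from chr7:38107441-38107740 on the minus strand, with capitals at each GC box, GGGCGG on either strand, and the second is from chr10:127063285-127063584 on the plus strand, with capitals at each E-box of the form CACGTG.
Ccne1: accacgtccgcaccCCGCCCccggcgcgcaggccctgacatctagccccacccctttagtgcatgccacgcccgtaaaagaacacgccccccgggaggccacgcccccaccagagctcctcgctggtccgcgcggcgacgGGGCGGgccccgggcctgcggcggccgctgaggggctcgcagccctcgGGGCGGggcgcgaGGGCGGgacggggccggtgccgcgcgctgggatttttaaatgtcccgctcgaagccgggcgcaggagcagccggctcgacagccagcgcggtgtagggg
Cdk4: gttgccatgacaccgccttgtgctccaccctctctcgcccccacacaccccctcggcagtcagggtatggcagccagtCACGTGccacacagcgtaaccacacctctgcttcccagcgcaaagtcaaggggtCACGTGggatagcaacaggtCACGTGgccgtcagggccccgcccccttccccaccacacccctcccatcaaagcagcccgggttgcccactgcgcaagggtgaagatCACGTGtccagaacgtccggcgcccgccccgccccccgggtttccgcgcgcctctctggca
The Ccne1 stretch held 4 GC boxes and no CANNTG, the general E-box to which basic helix-loop-helix factors bind. At least 1 GC box stood in 35.7% of all 32851 promoters in the table, and 4 or more stood in 5.49%. The GC box is not particular to Ccne1: the Cdk4 stretch held 3, left in lower case, and 1 of the Cdkn2c stretches held 4. The Cdk4 stretch also held 4 copies of CACGTG, the form of the E-box known to bind MYC. At least 1 copy stood in 7.15% of all promoters, and 4 or more copies in 8 promoters of the table. CANNTG, which includes CACGTG and reads the same on both strands, was present in 72.3% of promoters. These matches describe letters in the window and not binding.

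Reads in genes numbered 28667561 to 38938029 per null pool and 27905601 to 44860753 per wild-type pool. The null libraries held 7 to 26 reads of Hand2 and the wild-type libraries 1194 to 2123, so all 7 matched their labels. Null replicate 2 had the most reads outside genes (14.2%) and wild-type replicate 4 the most haemoglobin reads (2.18%). All 8 myocardial markers were expressed, with sums of 30385 to 35506 CPM (counts-per-million units over the reads in genes) for null pools, and 28704 to 32500.0 CPM for wild-type pools. Lists of other cell types moved with genotype: the 8 endothelial and endocardial markers had sums of 433 to 503 CPM in null pools and 293 to 320 in wild-type pools, and the 8 cushion mesenchyme markers sums of 88.8 to 122 CPM in null pools and 176 to 322 in wild-type pools. The 5 epicardial markers had sums of 57.1 to 70.0 CPM in null pools and 40.6 to 59.8 CPM in wild-type pools. The 8 erythroid markers had sums of 5609.9 to 14535 CPM in null pools and 9345 to 22073 CPM in wild-type pools, and both lists overlapped. Of the 6 foregut markers 4 stayed under 1 CPM in every library, as did 3 of the 5 neural markers, Sox1, Elavl3 and Sox10. The neural markers had sums of 6.24 to 7.73 CPM in null pools and 12.6 to 40.6 CPM in wild-type pools, and the 5 macrophage markers 8.83 to 13.6 CPM in null pools and 12.1 to 13.4 CPM in wild-type pools. The part of these shifts in the results on G1 genes was not tested.

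Of the 10 members, 3 fell in null canals (Ccnd2, Ccne1 and Cdkn1c), 1 rose (Rb1) and 6 did not pass the test. The test was edgeR's quasi-likelihood F test over 14290 genes, with a call at an adjusted p under 0.05. Across all genes tested it called 2.13% lower and 4.11% higher in null canals. The CPM ranges of the groups lay apart for 5 members with null canals lower and for 1 with null canals higher, as for 10.3% and 11.6% of all genes tested. The median log2 fold change, null over wild type, was -0.32 over the 10 members and 0.02 over all genes tested. A value below 0 was found for 8 members. The members, and the lists of other genes below, were chosen with earlier results of these data known. Their contrasts with all genes therefore cannot show that they stand out. All 10 members passed the filter on low counts. Single reads were counted in bulk tissue, so fewer cells of a type and less RNA per cell cannot be told apart.

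**Figure D1:**
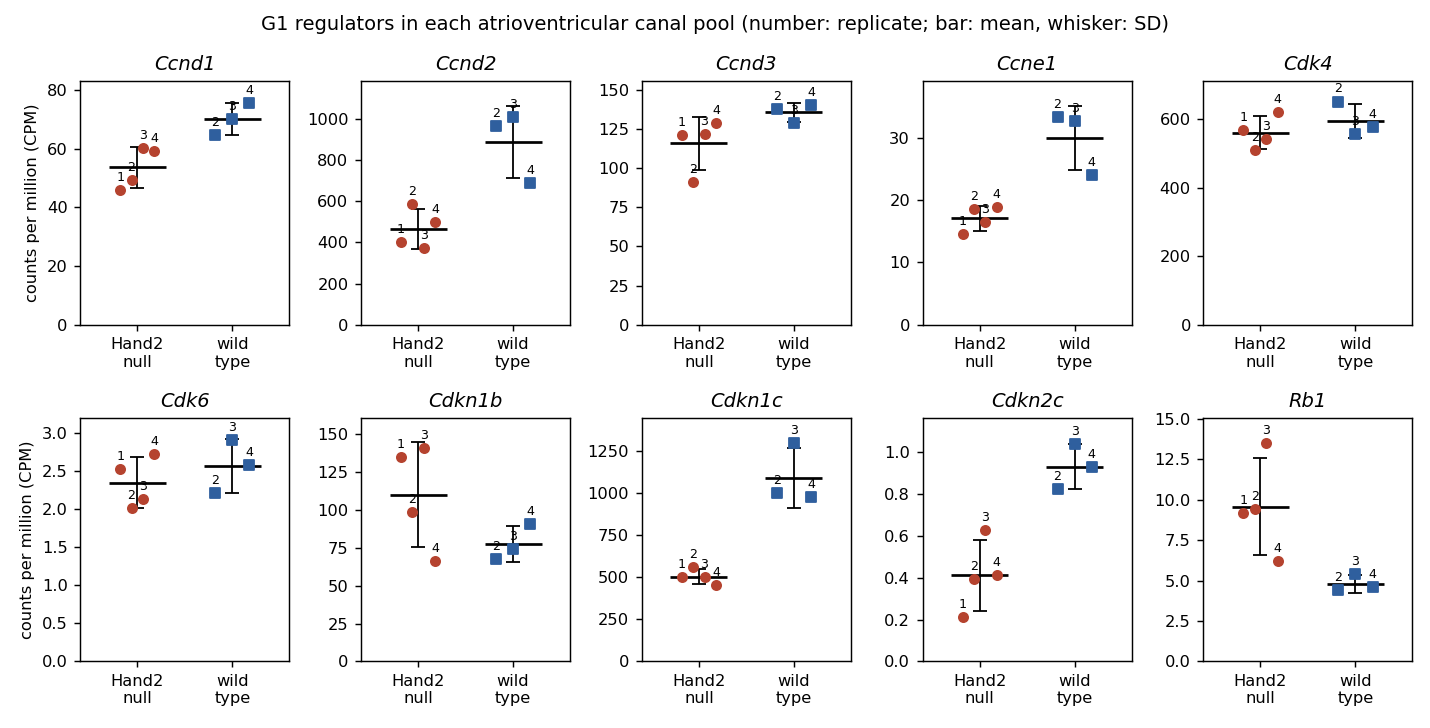
CPM (vertical axes, from 0) of the 10 members in each Hand2 null (red circles, left) and wild-type pool (blue squares, right). Numbers are replicates, bars means and whiskers SD (n = 4 and 3). Ccnd1, Ccnd2, Ccne1, Cdkn1c and Cdkn2c were lower in every null pool than in any wild-type pool, and Rb1 was higher.

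Levels between genes were compared as CPM per kilobase, with the length of all annotated exons of a gene. A gene whose main transcript is shorter than that is placed too low. The SDs and ranges of levels and ratios per kilobase cover the spread over libraries and not the choice of length. On this scale Cdkn1c was the most abundant member. It had 247 ± 22.0 CPM per kilobase in null and 535 ± 87.8 in wild-type canals (SD, n = 4 and 3). Cdk4 followed, at 173 ± 14.6 in null and 183 ± 15.2 in wild-type canals, and then Ccnd2, at 49.6 ± 10.4 in null and 94.3 ± 18.5 in wild-type canals. Cdkn1b, Ccnd3, Ccnd1, Ccne1 and Rb1 came next in both genotypes. The ranges over libraries of Cdkn1b and Ccnd3 overlapped in both genotypes, as did those of Ccnd3 and Ccnd1. The order within these pairs therefore did not hold beyond their spread. The order of the top genes rested in part on the lengths. Before division by length, null canals had 561 ± 47.5 CPM of Cdk4 and 503 ± 44.9 of Cdkn1c, with overlapping ranges. Wild-type canals had 1090 ± 179 CPM of Cdkn1c, 887 ± 174 of Ccnd2 and 596 ± 49.5 of Cdk4. Cdk6 and Cdkn2c were the lowest. Cdk6 stood at 0.168 ± 0.0238 CPM per kilobase in null and 0.183 ± 0.0250 in wild-type canals. Cdkn2c stood at 0.153 ± 0.0630 in null and 0.347 ± 0.0396 in wild-type canals. Per kilobase it was below Cdk6 with overlapping ranges in null and above it without overlap in wild type. Before division by length, Cdkn2c was below Cdk6 in wild-type canals, at 0.931 ± 0.106 CPM against 2.56 ± 0.350 CPM.

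Among the D-type cyclins, Ccnd2 had 402, 588, 375 and 501 CPM in null replicates 1 to 4, against 964, 1009 and 688 CPM in wild-type replicates 2 to 4. Every null pool lay below every wild-type pool, and the gap was smallest between null replicate 2 and wild-type replicate 4. The log2 fold change was -0.96 (SE 0.176, edgeR adjusted p = 0.00846), with a 95% interval of -1.34 to -0.57. Its call was lost without wild-type replicate 2 (adjusted p = 0.0577) or wild-type replicate 3 (0.0501), where the log2 fold changes were -0.90 and -0.84. Over the 15 alternative fits the adjusted p ran from 1.62e-05 (DESeq2) to 0.0577 and the log2 fold change from -1.22 to -0.84.

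Ccnd1, the D-type cyclin best known as a target of WNT and growth factor signals, had 46.0, 49.3, 60.1 and 59.2 CPM in null pools, against 64.8, 70.2 and 75.5 CPM in wild-type pools. The groups did not overlap, yet the gene did not pass the threshold. Its log2 fold change was -0.40 (SE 0.146, edgeR adjusted p = 0.116), with a 95% interval of -0.72 to -0.09 that is not adjusted for the number of genes. Ccnd3, a D-type cyclin with a known role in blood cells, had 121, 91.2, 122 and 129 CPM in null pools, against 138, 129 and 140 CPM in wild-type pools. The groups overlapped only through null replicate 4 and wild-type replicate 3, and the log2 fold change was -0.24 (SE 0.153, edgeR adjusted p = 0.361).

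For shares of the D-type cyclins, counts were divided by the length of all annotated exons of each gene. These lengths were 9409 bases for Ccnd2, 8775 for Ccnd3 and 4709 for Ccnd1. Single transcripts can be shorter, and shares with their lengths were not computed. On this scale Ccnd2 made up most of the summed D-type cyclin level in every pool. Its share was 64.4%, 75.0%, 59.9% and 66.1% in null replicates 1 to 4, against 77.7%, 78.4% and 69.5% in wild-type replicates 2 to 4. Null replicate 2 lay above wild-type replicate 4, so the groups overlapped. The mean share was 66.4% ± 6.32 in null and 75.2% ± 4.92 in wild-type canals (SD, n = 4 and 3), a difference of -8.85 percentage points. A two-sided exact permutation test gave p = 0.114. It counts the smaller tail 2 times, and 1 tail is at least 0.0286 with 35 splits. No p under 0.05 was therefore possible, and the test cannot decide whether the shares differ. The shares of Ccnd1 were 15.5% ± 2.77 in null and 12.2% ± 2.66 in wild-type canals. Those of Ccnd3 were 18.1% ± 3.96 in null and 12.6% ± 2.33 in wild-type canals. The summed level of the 3 genes lay at 66.3 to 83.4 CPM per kilobase in null pools and at 105 to 137 in wild-type pools, given without a test because the sum follows Ccnd2.

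**Figure D2:**
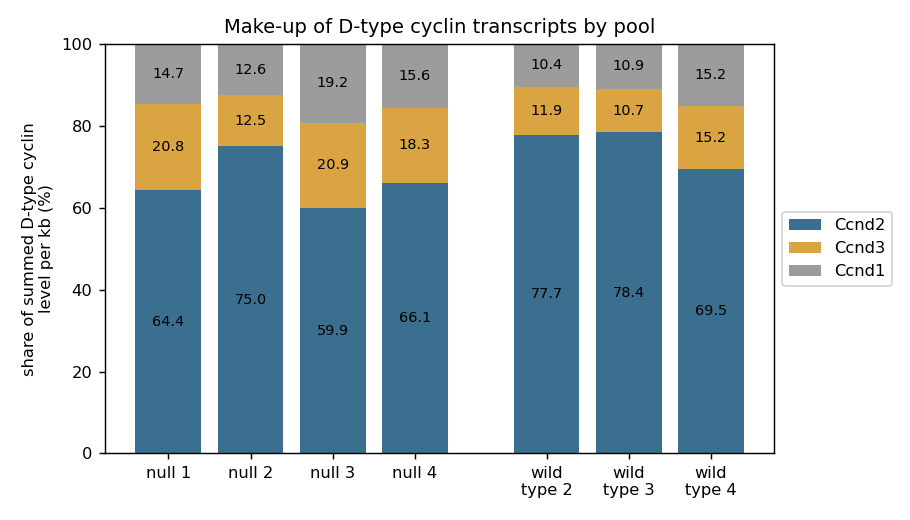
Share of Ccnd2, Ccnd3 and Ccnd1 (percent of their summed CPM per kilobase) in each null pool (left) and wild-type pool (right). Ccnd2 was 59.9% to 75.0% in null pools and 69.5% to 78.4% in wild-type pools.

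Ccne1, which encodes the cyclin partner of CDK2 at the entry into S phase, had 14.5, 18.5, 16.5 and 18.8 CPM in null pools, against 33.2, 32.7 and 24.0 CPM in wild-type pools. All null pools were below all wild-type pools, and wild-type replicate 4 was the lowest of its group, as it was for Ccnd2. Its fitted log2 fold change was -0.83 (SE 0.165, edgeR adjusted p = 0.0126). The call was lost without null replicate 1 (adjusted p = 0.0509), wild-type replicate 2 (0.0866) or wild-type replicate 3 (0.0750), with log2 fold changes of -0.79, -0.76 and -0.76. The adjusted p ranged from 0.000109 (DESeq2) to 0.0866 over the 15 alternative fits.

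The kinase genes did not pass the test. Cdk4, whose product is activated by D-type cyclins, had 570, 510, 543 and 622 CPM in null pools, against 652, 558 and 578 CPM in wild-type pools. The groups overlapped, and the log2 fold change was -0.10 (SE 0.132, edgeR adjusted p = 0.681) with a 95% interval of -0.39 to 0.19. Its exons share 641 bases with the antisense gene Tspan31, whose log2 fold change was 0.03 (SE 0.132). Cdk6, the close relative of Cdk4, had 61 to 106 reads per null library and 72 to 99 per wild-type library. Its log2 fold change was -0.14 (SE 0.274, edgeR adjusted p = 0.795), and the interval of -0.74 to 0.46 was wider than for Cdk4. Per kilobase, the level of Cdk4 was 1038 ± 67.3 times that of Cdk6 in null canals and 1021 ± 228 times in wild-type canals (SD, n = 4 and 3). Part of these ratios comes from the exon lengths, 3249 bases for Cdk4 and 13989 for Cdk6. Before division by length, null canals had means of 561 CPM of Cdk4 and 2.34 CPM of Cdk6. Wild-type canals had 596 and 2.56 CPM.

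Of the inhibitors, Cdkn1c had the smallest p of all members. It had 500.4, 561, 499 and 452 CPM in null pools, against 998, 1296 and 976 CPM in wild-type pools. The highest null pool was well below the lowest wild-type pool. On the log2 scale the fold change was -1.14 (SE 0.146, edgeR adjusted p = 0.000932), with a 95% interval of -1.46 to -0.82. The call held in each of the 15 alternative fits, at adjusted p of 7.29e-11 to 0.0087 and log2 fold changes of -1.25 to -0.98. The smallest came from DESeq2, a different test, and the smallest edgeR value was 0.00022.

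Cdkn1b, the other CIP/KIP inhibitor among the members, had 135, 98.7, 141 and 66.0 CPM in null pools, against 67.7, 74.2 and 90.8 CPM in wild-type pools. Null replicates 1, 2 and 3 were above the wild-type pools, and null replicate 4 was below all of them. The fitted log2 fold change came to 0.50 (SE 0.245, edgeR adjusted p = 0.235). Without null replicate 4 it was 0.68 (adjusted p = 0.0547), the smallest of 0.0547 to 0.525 over the 15 alternative fits. The level of Cdkn1c per kilobase was 8.29, 12.7, 7.91 and 15.3 times that of Cdkn1b in the null pools, against 32.9, 39.0 and 24.0 times in the wild-type pools. These ratios did not overlap between genotypes, and they were set side by side after the values had been seen, so they carry no test.

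Cdkn2c, the INK4 inhibitor p18, had only 8, 13, 18 and 16 reads in the null pools, against 37, 30 and 26 reads in the wild-type pools. This came to 0.412 ± 0.169 CPM in null and 0.931 ± 0.106 CPM in wild-type canals (SD, n = 4 and 3), without overlap. The log2 fold change of -1.20 was the lowest of any member, but the few reads gave an SE of 0.454 and an edgeR adjusted p of 0.131. Its 95% interval of -2.19 to -0.21 was also the widest.

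Rb1 was the single member called higher. It had 342, 310, 387 and 241 reads in the null pools, which is 9.16, 9.44, 13.5 and 6.19 CPM, against 197, 156 and 128 reads or 4.39, 5.40 and 4.59 CPM in the wild-type pools. The groups did not overlap, with null replicate 4 closest to wild type, as it was for Cdkn1b. The log2 fold change was 0.98 (SE 0.265, edgeR adjusted p = 0.0489). The call was lost in 8 of 15 alternative fits. Over all 15 the adjusted p ran from 0.00745 (DESeq2) to 0.201. Upper-quartile scaling gave 0.0515. Omitting null replicate 1, 2 or 3 gave 0.103, 0.0915 and 0.0559. Omitting a wild-type pool gave 0.201 for replicate 2, 0.112 for replicate 3 and 0.0984 for replicate 4. Omitting both null replicate 2 and wild-type replicate 4 gave 0.158. The log2 fold change stayed between 0.75 and 1.14. In the GENCODE M21 annotation its exons share 408 bases with the antisense gene Lpar6 and 488 bases with Rcbtb2, and without strand the reads of these genes cannot be told apart there. Reads over more than 1 gene, which were 1.46% to 1.69% of counted reads, were set aside by the counter, but whether its annotation held these overlaps is not known. The log2 fold change was 0.63 (SE 0.210, edgeR adjusted p = 0.0939) for Lpar6 and 0.02 (SE 0.140, edgeR adjusted p = 0.951) for Rcbtb2, both named for their position.

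**Figure D3:**
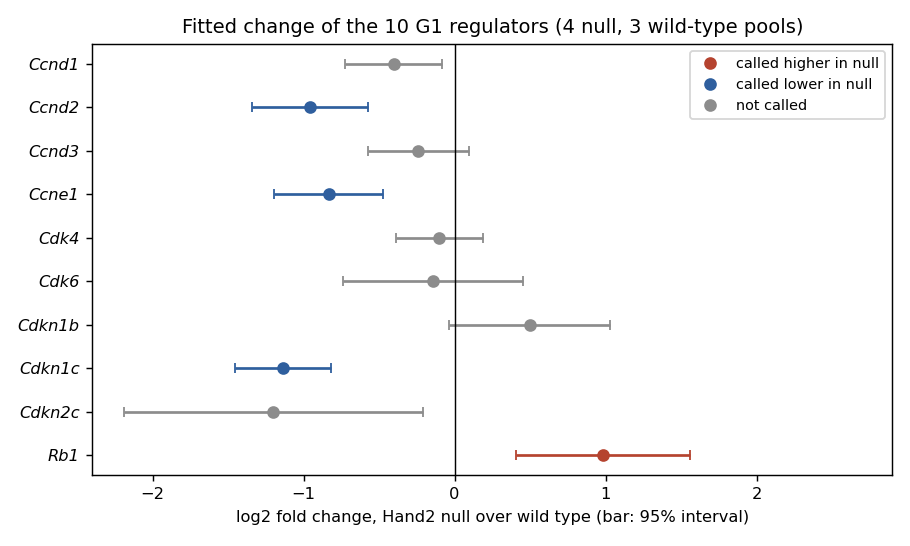
Fitted log2 fold change of each member, Hand2 null over wild type (horizontal axis), with its 95% interval before adjustment for the number of genes. Ccnd2, Ccne1 and Cdkn1c were called lower (blue) and Rb1 higher (red), while the intervals of Cdk4, Cdk6, Ccnd3 and Cdkn1b included 0.

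The rest of the G1 network was read from the same fits. Of 15 other G1 regulators, 13 were tested. By edgeR 1 fell and none rose, where it called 2.13% of all genes tested lower and 4.11% higher. The median log2 fold change of the 13 was -0.15, against 0.02 over all genes tested. At an unadjusted edgeR p under 0.05 there were 3 lower and 1 higher of 13, where 10.9% of all genes tested were lower and 13.5% higher. DESeq2 called 3 lower and 1 higher, where it called 5.42% lower and 7.01% higher of the 14169 genes that it gave an adjusted p. The gene that fell was Cdc25a, the phosphatase that activates CDK2, at 21.0 ± 1.80 CPM in null and 30.0 ± 2.06 CPM in wild-type canals (SD, n = 4 and 3; log2 fold change -0.53, SE 0.139, edgeR adjusted p = 0.0441). Its call was lost in 9 of 15 alternative fits, among them each fit that left out a library other than null replicate 3. The adjusted p was 0.00431 (DESeq2) to 0.207 over all 15. The INK4 genes Cdkn2a and Cdkn2b were too low to be tested. Cdkn2a had no read in any library, and Cdkn2b had 6 to 18 reads per null library and 3 to 8 per wild-type library.

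None of the 10 E2F and DP factors was called by edgeR, which called 2.13% of all genes tested lower and 4.11% higher. Of the 10 factors, 9 had a value below 0, and the median of all 10 was -0.33. At an unadjusted p under 0.05, where the shares over all genes were 10.9% lower and 13.5% higher, 4 of 10 were lower and 0 higher. DESeq2 called 1 lower, against 5.42% of the genes that it gave an adjusted p. The most abundant were Tfdp1, the dimer partner of E2F proteins, at 47.1 ± 10.6 CPM in null and 49.3 ± 4.61 CPM in wild-type canals, and the repressor E2f4, at 39.6 ± 4.89 CPM in null and 49.3 ± 3.93 CPM in wild-type canals (SD, n = 4 and 3). Their log2 fold changes were -0.09 (SE 0.170) and -0.34 (SE 0.137), and that of Tfdp1 was 0.03 without null replicate 3.

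Of 15 S phase genes, 2 fell and none rose by edgeR, against 2.13% and 4.11% of all genes tested. Their median was -0.21. At an unadjusted p under 0.05, 6 of 15 were lower and 0 higher, against 10.9% and 13.5% of all genes. DESeq2 called 5 lower, against 5.42% of the genes that it gave an adjusted p. The replication clamp gene Pcna had 189, 195, 190 and 195 CPM in null pools, against 316, 318 and 271 CPM in wild-type pools (log2 fold change -0.67, SE 0.123, edgeR adjusted p = 0.00825). Tyms, which makes thymidylate for DNA synthesis, had 70.1, 79.9, 63.8 and 94.4 CPM in null pools, against 127, 129 and 123 CPM in wild-type pools (log2 fold change -0.74, SE 0.142, edgeR adjusted p = 0.0110). Neither gene overlapped between genotypes. Without wild-type replicate 2 the adjusted p was 0.0698 for Pcna and 0.0641 for Tyms, and without wild-type replicate 3 it was 0.0624 and 0.0613. The Tyms call was also lost with both null replicate 2 and wild-type replicate 4 omitted (0.0615).

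None of 12 G2 and mitosis genes was called by edgeR, against 2.13% lower and 4.11% higher over all genes tested. Their median was -0.14. DESeq2 called 1 of the 12 lower, against 5.42% of the genes that it gave an adjusted p. At an unadjusted p under 0.05, 3 were lower and 0 higher, against 10.9% and 13.5% of all genes. The topoisomerase gene Top2a had 502 ± 66.8 CPM in null and 450 ± 21.1 CPM in wild-type canals, and the mitotic cyclin Ccnb1 had 403 ± 102 CPM in null and 435 ± 68.0 CPM in wild-type canals (SD, n = 4 and 3). Their log2 fold changes were 0.14 (SE 0.138) and -0.13 (SE 0.196), and that of Ccnb1 was 0.02 without null replicate 3.

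Of 13 genes listed as upstream growth regulators, 3 rose and none fell by edgeR, against 4.11% and 2.13% of all genes tested. Their median was 0.45. DESeq2 called 5 of the 13 higher and 0 lower, against 7.01% and 5.42% of the genes that it gave an adjusted p. At an unadjusted p under 0.05, 7 were higher and 2 lower, against 13.5% and 10.9% of all genes. Mxi1, which antagonises MYC at E-boxes, had 57.0, 55.7, 59.0 and 33.2 CPM in null pools, against 19.1, 19.5 and 21.7 CPM in wild-type pools (log2 fold change 1.34, SE 0.206, edgeR adjusted p = 0.0031). Ctgf and Cyr61 encode secreted matricellular proteins and are used as readouts of YAP, so they are not regulators above it. The counts and median of the list include both genes. Their log2 fold changes were 1.54 (SE 0.230, edgeR adjusted p = 0.00261) and 1.21 (SE 0.265, edgeR adjusted p = 0.0205). Yap1, on the same list, was at -0.04 (SE 0.196, edgeR adjusted p = 0.925). Cyr61 lost its call without wild-type replicate 2 (0.0663), 3 (0.0937) or 4 (0.0526), and its log2 fold change was 0.88 (adjusted p = 0.0803) with both null replicate 2 and wild-type replicate 4 omitted.

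**Figure D4:**
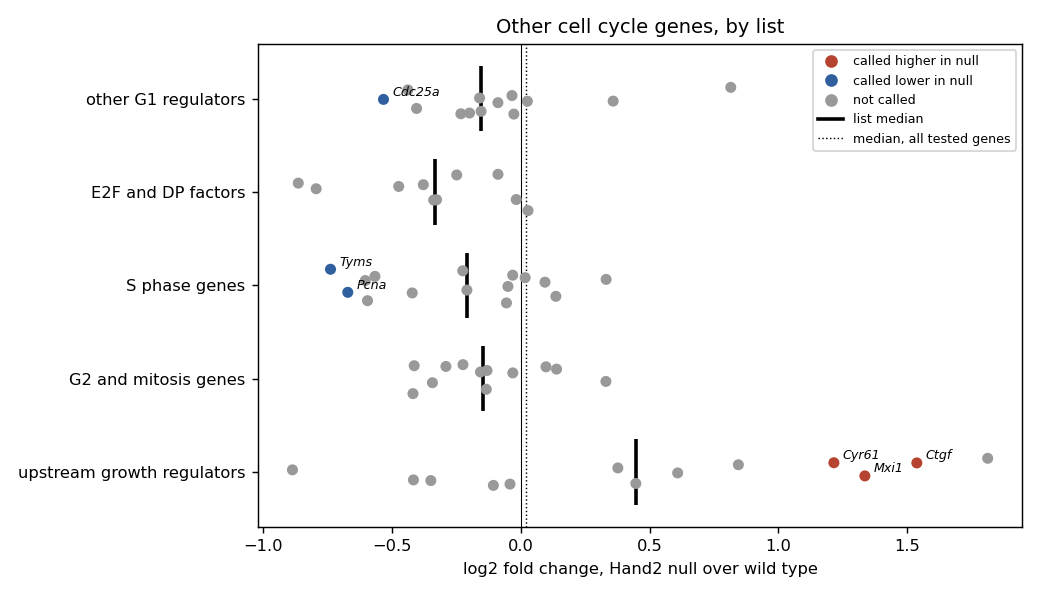
Log2 fold change, Hand2 null over wild type (horizontal axis), of the tested genes of each list (points), with list medians as black bars and the median of all genes as a dotted line. Cdc25a, Tyms and Pcna were called lower (blue) and Ctgf, Mxi1 and Cyr61 higher (red).

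The profile of Cdkn1c, the member with the smallest p, was compared with those of 7929 other genes of at least 10 CPM over the 7 libraries. The 5 most alike were Ndufb10, Mrps12, Prkrip1, Psme2 and Dad1, with Pearson's r of 0.982 to 0.987. All 7 points share the division into genotypes, and these 5 genes had smaller log2 fold changes than Cdkn1c, between -0.62 and -0.31.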

How the data were processed

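RNA was measured in 4 Hand2 null and 3 wild-type pools, grouped by their titles. Per the labels' protocols, ribosomal RNA was depleted, cDNA was amplified by PCR, and single unstranded reads of 50 nt were sequenced. The authors deposited raw whole-number read counts per gene. The submitters' processing notes name build mm9 and the tools SAMtools, HTSeq and TopHat2 2.0.13. Neither the gene annotation nor the counting settings are stated there. The counter's 5 summary rows were left out. Reads aligned to several places (9.08% to 11.6% of counted reads in null, 12.2% to 13.8% in wild type) are not in the gene counts. PCR reads are not independent molecules, so precision from depth covers counting error only.

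Counts were tested with edgeR 4.0.16 in R 4.3.3 (TMM, minimum count 10, genotype as the only term, Benjamini-Hochberg adjustment over all tested genes). SE was computed as the absolute log2 fold change over the root of F. Intervals use the fit's moderated degrees of freedom. Exon lengths, taken over all annotated exons of a gene, came from GENCODE M21 (GRCm38), a different build from that of the counts. There the exons of 7 of the 10 members overlap an antisense gene (all but Ccne1, Cdkn1b and Cdkn2c), so without strand their counts may hold reads of that gene. Reads over more than 1 gene (1.46% to 1.69%) were set aside in a summary row, as far as the unstated annotation held both genes. The antisense genes over Ccnd1, Cdk6 and Cdkn1c, and 1 of the 2 over Ccnd2, had no row under their GENCODE names in the counts. Reads in those overlaps may therefore have been counted to the member. In addition, Ccnd3 has an annotated pseudogene copy. Alternatives were RLE and upper-quartile scaling, DESeq2 1.42.0, no filter or a minimum count of 50, libraries left out, a replicate block and removal of haemoglobin genes. The scripts were tested on simulated data. The members and lists were chosen with earlier results of these data known. The text names all members, Hand2, up to 4 called genes per list (smallest p) or, with no call, the 2 most abundant, and the 5 genes most like the member with the smallest p. Other genes are named for their position or were chosen after their values were seen.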

Additional observations from a re-analysis of the deposited data

Results flagged for a closer look

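One value among the 22 sets of 4 null libraries examined stood far from the others. Mxi1 was at 33.23 CPM in null replicate 4, against 55.7 to 59.0 CPM in the other null libraries, a gap of 0.873 of the group's range, which is past Dixon's critical value for 4 samples. Chance alone flags about 1 in 20 such sets. The value was still above the 19.1 to 21.7 CPM of the wild-type libraries.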

How the results depend on the processing

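Cdkn1c kept its direction and its call in all 15 alternative fits, and each other member kept its direction in every fit that tested it (Cdkn2c was not tested under the stricter filter). The members called numbered 1 to 4 with 1 library left out, against 4 with all libraries: 2 when null replicate 1 was omitted, and 1 when wild-type replicate 2 or 3 was. Each such fit also has fewer samples. Over all genes, 587 were higher and 305 lower in null canals with all libraries, 210 to 946 and 46 to 652 with 1 library left out, 993 and 768 with DESeq2, and 298 and 123 with both null replicate 2 and wild-type replicate 4 omitted. With 1 library left out, log2 fold changes near 0 ran from -0.219 to 0.0263 for Tfdp1 and from -0.258 to 0.0185 for Ccnb1, positive only without null replicate 3. The difference in the Ccnd2 share of D-type cyclins was -11.7 to -6.70 percentage points with 1 library left out and -7.94 without length correction. With all libraries or with 1 left out, the splits are too few for any two-sided permutation p under 0.05, so the test cannot decide here. The cause of these movements was not tested. Replicate numbers 2 to 4 occur in both genotypes. Deviations of same-numbered libraries had correlations of -0.073, 0.257 and 0.166 for replicates 2, 3 and 4. Libraries of different number and genotype had -0.234 to 0.137, so replicates 3 and 4 lay above all of these and replicate 2 did not. The numbers were not taken as pairs, and whether they are pairs cannot be told from these values. A replicate block over these 6 libraries, which also leaves out null replicate 1, gave 761 genes higher and 578 lower and 4 members called, with Cdc25a at an adjusted p of 0.0564. The same 6 libraries without the block gave 284 and 90 genes, 2 members called and 0.114 for Cdc25a. Depth limits Cdkn2c and Cdk6 most, at 8 to 106 reads per library.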

Other observations

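Genes of the wider network that edgeR did not call are given as values, chosen after they were seen. DESeq2 called Cdk2, Cdkn1a and Myc, but not Ccne2. Cdk2, the partner of cyclin E, was at 79.1 ± 4.46 CPM in null and 103 ± 0.894 CPM in wild-type canals without overlap (SD, n = 4 and 3; log2 fold change -0.40, edgeR adjusted p = 0.0740). Ccne2, the other E-type cyclin, was at 36.2 ± 10.7 CPM in null and 36.2 ± 4.08 CPM in wild-type canals (-0.03, adjusted p = 0.957). The CIP/KIP inhibitor Cdkn1a was at 26.5, 35.8, 43.9 and 17.3 CPM in null replicates 1 to 4, against 20.1, 12.2 and 19.7 CPM in wild-type replicates 2 to 4 (0.82, edgeR adjusted p = 0.109). Null replicate 3 had the most Cdkn1a, Cdkn1b and Rb1 of the null libraries, and null replicate 4 the least of each. Myc was at 37.7 ± 2.81 CPM in null and 24.5 ± 6.40 CPM in wild-type canals (SD, n = 4 and 3; log2 fold change 0.61, edgeR adjusted p = 0.0572).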
